A study of Mus musculus with 16 samples.

Results

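The markers of lipid-associated macrophages followed here are Trem2, Tyrobp, Gpnmb, Spp1, Cd9, Cd63, Lgals3, Dcstamp, Cd68 and Adgre1. The members were taken by gene symbol, and all 10 were found among the 20101 genes of the expression table. They were followed across 16 RNA-seq libraries of mouse epididymal white adipose tissue, the fat pad beside the epididymis. Each library came from a mouse aged 21 weeks, and 4 mice made up each of 4 groups. The chow WT and chow KO groups ate a diet with 5% fat throughout. The HFD WT and HFD KO groups were switched to a high-fat diet with 60% fat at 5 weeks of age. KO in the sample titles refers to Apoa4, the gene of the lipid-binding plasma protein apolipoprotein A-IV, while the genotype field of those samples speaks of a knockdown; how the line was made was not given in the sources used here. All values are FPKM, which scales fragments by gene length and by library size, so levels can be set side by side between genes.

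Lipid-associated macrophages gather around dying fat cells in obese fat, where they take up and break down the lipid that is released. TREM2 is a surface receptor for lipids and lipoproteins, and it signals through the adaptor TYROBP (DAP12) and the kinase SYK. The other members are lysosomal proteins (Gpnmb, Cd68, Cd63), secreted proteins (Spp1, which encodes osteopontin, and Lgals3, which encodes galectin-3), a tetraspanin of the cell surface (Cd9), a protein needed for macrophage and osteoclast fusion (Dcstamp) and the general mouse macrophage antigen F4/80 (Adgre1). Cd63, Cd9 and Lgals3 are also made by many cells that are not macrophages.

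Promoter entries from RefSeq on GRCm38.p6 were found for 7 of the 10 members, with 8 entries in all; none was found for Tyrobp, Dcstamp and Adgre1. The windows shown belong to the receptor, to the lysosomal marker and to the pair of members with the largest diet effects. Spp1 is the member with an extra entry. That entry, with upstream bases chr5:104435942-104436191, is not shown and held no match to the motifs searched. Capitals mark matches on either strand to TGANTCA, the AP-1 motif, and to GAGGAA, a PU.1-type motif.
Trem2, 250 bases upstream of the start, chr17:48346151-48346400, strand +: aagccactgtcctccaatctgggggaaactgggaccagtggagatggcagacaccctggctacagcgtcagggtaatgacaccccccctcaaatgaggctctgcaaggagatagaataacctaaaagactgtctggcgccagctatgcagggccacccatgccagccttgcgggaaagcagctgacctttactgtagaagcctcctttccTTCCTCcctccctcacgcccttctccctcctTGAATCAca
Cd68, 250 bases upstream of the start, chr11:69666171-69666420, strand -: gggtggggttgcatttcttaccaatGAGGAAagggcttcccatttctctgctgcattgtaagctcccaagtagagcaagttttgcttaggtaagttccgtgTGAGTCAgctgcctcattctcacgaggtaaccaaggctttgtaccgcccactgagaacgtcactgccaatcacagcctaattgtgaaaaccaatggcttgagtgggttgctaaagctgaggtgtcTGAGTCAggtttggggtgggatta
Spp1, 250 bases upstream of the start, chr5:104434861-104435110, strand +: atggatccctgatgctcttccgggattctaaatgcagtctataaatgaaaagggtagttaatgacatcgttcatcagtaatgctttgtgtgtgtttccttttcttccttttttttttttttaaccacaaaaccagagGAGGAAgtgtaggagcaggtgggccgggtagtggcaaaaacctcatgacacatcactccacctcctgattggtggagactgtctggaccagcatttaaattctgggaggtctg
Gpnmb, 30 bases around the start, chr6:49036515-49036544, strand +: ccaggggcaagTGACTCAtgagcacgagtt
A match to TGANTCA was present in 3 of the 8 member windows of 300 bases, against 7.81% of all 32851 promoter windows of that length. GAGGAA was present in 4 of the 8, against 28.3% of all windows. CACGTG, the core of the lysosomal CLEAR motif, and CATGTGA, an M-box, were in 0 of the 8 windows, against 7.15% and 3.99% of all windows. The motifs searched do not overlap one another in the printed windows. These matches describe letters in a window and say nothing about binding.

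Before the markers are compared, 3 libraries need a remark. Summed over 12 listed genes of epididymis and testis, chow KO replicate 2 held 3.03% of all its FPKM and HFD KO replicate 4 held 1.21%, while no library of the WT groups passed 0.00919%. HFD KO replicate 2 carried a smaller amount, 0.0882%. Level differences of the markers are also given without these libraries where that changed a call or a sign or moved a called fold by over 1.5 times. Apoa4 RNA was higher in the libraries labelled KO, from 1.96 to 5.96 FPKM on chow and from 4.93 to 9.63 FPKM on HFD, against at most 0.29 FPKM in any library labelled WT. Every direction between genotypes therefore rests on the labels. Summed FPKM per library ranged from 413167 to 468186, and the number of reads behind each value is not known.

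The first comparison is of diet within the WT label. All 10 markers were higher on HFD, with adjusted p under 0.05 in limma, against 24.6% of the 12667 genes tested, and the HFD and chow groups did not overlap for any of the 10, against 26.1% of genes higher without overlap. The median log2 difference over the 10 was 2.96, against 0.06 over all genes tested. The members were chosen with earlier results of these data known, so these counts, here and below, describe the panel and are no independent support. Dcstamp was at 1 FPKM or more in no chow library and Spp1 in 1, so both passed the low-value filter through the HFD libraries. That selects for high HFD values, so both are no support in these counts. The other 8 markers were above 1 FPKM in all 16 libraries. In this tissue, more macrophages and more RNA per macrophage cannot be told apart. In the KO label 9 of the 10 were higher on HFD, against 23.5% of genes called higher, with a median of 3.33 against 0.08 over all genes; the groups did not overlap for those 9, against 17.5% of genes.

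**Figure D1:**
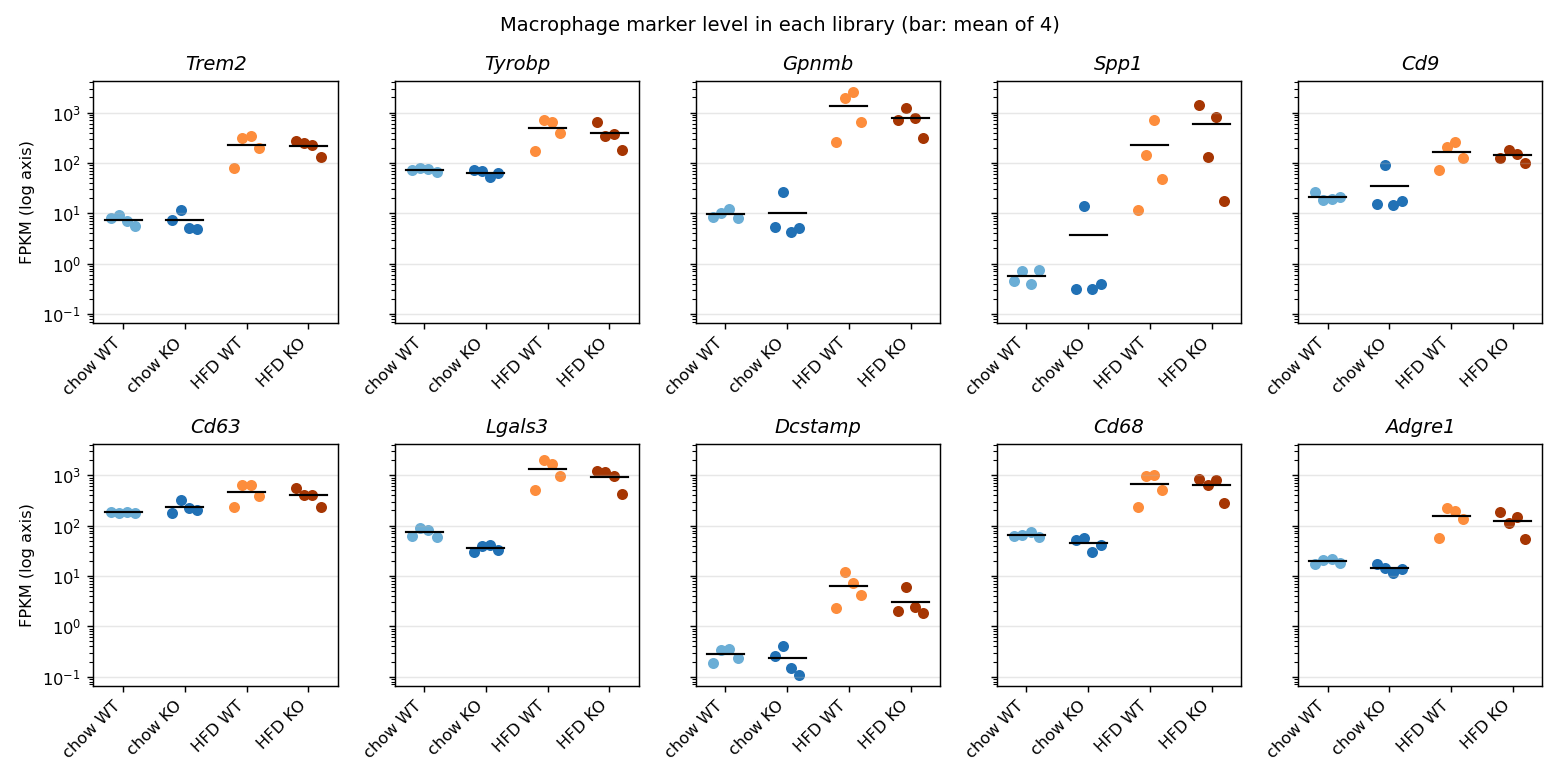
FPKM of each marker on a log axis in the 16 libraries, 4 per group, with a bar at each group mean. HFD libraries sit above chow libraries for every marker in the WT label, and chow KO replicate 2 stands above its group for Gpnmb, Spp1 and Cd9.

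Trem2, the lipid receptor (Entrez gene 83433, chr17:48346401-48354147 on GRCm38.p6), stood at 8.04, 9.12, 6.95 and 5.50 FPKM in chow WT and at 77.7, 316, 335 and 201 FPKM in HFD WT. Replicate 1 was the lowest of the HFD WT libraries and still lay well above every chow library. The log2 difference was 4.61 (SE 0.39, limma adjusted p = 2.62e-06). In the KO label, Trem2 went from 7.23, 11.5, 5.18 and 4.91 FPKM on chow to 270, 246, 222 and 134 FPKM on HFD, a log2 difference of 4.76 (SE 0.39, limma adjusted p = 4.63e-06).

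Tyrobp, the adaptor that carries the TREM2 signal, was already well expressed on chow, at 71.8, 77.7, 75.1 and 67.2 FPKM in chow WT. In HFD WT it stood at 174, 714, 659 and 400 FPKM, so replicate 1 was again the lowest. HFD KO gave 636, 350, 372 and 183 FPKM, against 72.0, 68.4, 52.3 and 63.6 FPKM in chow KO. The differences were 2.53 in the WT label and 2.45 in the KO label on the log2 scale, with limma adjusted p of 0.000243 and 0.000456. Whether Tyrobp and Trem2 rose unequally was not tested directly; both are set against Adgre1 below.

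Of the lysosomal markers, Gpnmb had the largest difference in the WT label. It stood at 8.63, 10.3, 12.1 and 8.09 FPKM in chow WT and at 259, 1934, 2562 and 650.1 FPKM in HFD WT, and no library of one diet came near the other. Gpnmb rose by 6.49 in the WT label (SE 0.66, limma adjusted p = 1.20e-05) and by 6.30 in the KO label (SE 0.66, limma adjusted p = 2.40e-05). Chow KO replicate 2, the library with epididymal genes, reached 26.3 FPKM, with 4.32 to 5.46 FPKM among its 3 companions. The rise in the KO label was 6.85 without that library and 7.22 without it and HFD KO replicate 4 (limma adjusted p = 1.56e-05 and 1.15e-05). Without all 3 libraries with epididymal genes it was 6.96 (limma adjusted p = 3.83e-05). In the WT label, leaving out HFD WT replicate 1, the lowest HFD library, gave 7.11 (limma adjusted p = 2.18e-06).

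Cd68, a lysosomal glycoprotein of macrophages, ranged from 58.7 to 74.2 FPKM in chow WT and from 230 to 1022 FPKM in HFD WT. It rose by 3.15 in the WT label (SE 0.43, limma adjusted p = 0.000102) and by 3.72 in the KO label (SE 0.43, limma adjusted p = 4.90e-05), or by 4.31 without the 3 libraries with epididymal genes.

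Cd63, a tetraspanin of late endosomes and lysosomes, moved least. It was the most abundant marker on chow, at 187, 178, 189 and 180 FPKM in chow WT and 182, 328, 225 and 205 FPKM in chow KO, with chow KO replicate 2 the highest. On HFD it stood at 237, 628, 645 and 385 FPKM in the WT label and 558, 414, 415 and 235 FPKM in the KO label. The WT groups did not overlap and the difference was 1.25 (SE 0.31, limma adjusted p = 0.00509). The KO groups overlapped, and the difference of 0.75 (SE 0.31, 95% CI 0.10 to 1.41) did not pass, with a limma adjusted p of 0.0653. Without chow KO replicate 2 and HFD KO replicate 4, both rich in epididymal genes, it was 1.17 with a limma adjusted p of 0.00625. Without HFD KO replicate 2 as well it was 1.24 (limma adjusted p = 0.0100). Leaving out chow KO replicate 2 alone gave 0.93 (limma adjusted p = 0.0310), leaving out HFD KO replicate 4 alone 0.99 (limma adjusted p = 0.0155), and leaving out HFD WT replicate 1 kept 0.75 but brought the limma adjusted p to 0.0278.

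Cd9, a tetraspanin that marks these macrophages at the cell surface, stood at 26.1, 18.8, 19.2 and 20.9 FPKM in chow WT and at 71.5, 212, 265 and 126 FPKM in HFD WT, with no overlap. It rose by 2.78 in the WT label and by 2.43 in the KO label, with limma adjusted p of 0.000675 and 0.00201. In chow KO the values were 15.6, 92.5, 14.3 and 17.3 FPKM, and replicate 2 came close to the lowest HFD KO library, 100.95 FPKM. Without that chow library the rise of Cd9 in the KO label was 3.06, and without it and HFD KO replicate 4 it was 3.20 (limma adjusted p = 4.89e-05 and 4.17e-05). Without all 3 libraries with epididymal genes it was 3.08 (limma adjusted p = 0.000151). An antisense gene, Gm26728, shares 218 exonic bases with Cd9, and without the strand of the libraries reads of the pair cannot be told apart.

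Among the secreted markers, Spp1 (osteopontin) was the most variable. It was at 0.45, 0.70, 0.39 and 0.76 FPKM in chow WT and at 11.6, 146, 702 and 47.4 FPKM in HFD WT. HFD KO gave 1388, 130, 816 and 17.6 FPKM, so the libraries within each HFD group spanned more than the group means differed. Spp1 rose by 5.83 in the WT label (SE 1.31, limma adjusted p = 0.00289) and by 6.55 in the KO label (SE 1.31, limma adjusted p = 0.00175). Chow KO replicate 2 held 13.8 FPKM, while the other chow KO libraries held 0.31 to 0.40 FPKM. Single libraries set much of the size of these differences. In the KO label the rise of Spp1 was 7.42 without chow KO replicate 2, 5.69 without HFD KO replicate 1, 5.94 without HFD KO replicate 3 and 7.76 without HFD KO replicate 4. It was 8.63 without the 2 libraries rich in epididymal genes and 9.63 without all 3. In the WT label it was 6.77 without HFD WT replicate 1 and 4.84 without HFD WT replicate 3. The largest limma adjusted p among these 8 fits was 0.0113. With a pseudocount of 0.1 in place of 1 the rises were 7.05 and 7.76 in the WT and KO labels. The gene Gm42793 shares 309 exonic bases with Spp1 on the same strand.

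Lgals3 (galectin-3), which binds sugars on damaged lysosomes and at the cell surface, stood at 61.1, 90.6, 83.2 and 59.8 FPKM in chow WT and at 520, 2027, 1711 and 974.5 FPKM in HFD WT. In the KO label it went from 30.2, 39.9, 40.9 and 33.1 FPKM to 1192, 1150, 950.4 and 435 FPKM. No chow library overlapped an HFD library, and the log2 differences were 3.97 and 4.56 (SE 0.38 each, limma adjusted p = 7.91e-06 and 5.74e-06).

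Dcstamp, the fusion protein, stayed the lowest of the 10 in every group. It was at 0.19, 0.34, 0.36 and 0.23 FPKM in chow WT and at 2.30, 12.1, 7.18 and 4.21 FPKM in HFD WT. HFD KO held 2.05, 5.99, 2.40 and 1.85 FPKM, with replicate 2 the highest, against 0.11 to 0.40 FPKM in chow KO. On the log2(FPKM + 1) scale, which understates changes of low genes, it rose by 2.36 in the WT label (SE 0.35, limma adjusted p = 0.000174) and by 1.63 in the KO label (SE 0.35, limma adjusted p = 0.00252). With a pseudocount of 0.1 the rises were 3.88 and 3.18, and with 0.5 that in the WT label was 2.94.

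Adgre1, the F4/80 gene, ranged from 17.7 to 22.0 FPKM in chow WT and from 56.7 to 227 FPKM in HFD WT, and from 11.6 to 17.2 FPKM in chow KO and 55.1 to 183 FPKM in HFD KO. It rose by 2.73 and 2.94 in the WT and KO labels (SE 0.39 each, limma adjusted p = 0.000134 and 0.000122). Ordered by mean level, chow WT ran from Cd63 through Lgals3, Tyrobp and Cd68, then Cd9 and Adgre1, then Gpnmb and Trem2, to Spp1 and Dcstamp. Within that order the ranges overlapped between neighbours from Lgals3 to Cd68, between Cd9 and Adgre1, and between Gpnmb and Trem2. In HFD WT the order began with Gpnmb, Lgals3 and Cd68, the ranges of neighbouring genes overlapped from Gpnmb down to Adgre1, and Dcstamp alone stood apart.

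Because a general macrophage gene rose too, each marker was also fitted relative to Adgre1 in the same library. In the WT label Gpnmb, Spp1, Trem2 and Lgals3 rose beyond Adgre1, 4 of 9 markers against 0.261% of the 12666 other genes. Spp1 and Dcstamp, 2 of the 9, reached the low-value filter only through the HFD libraries. Spp1 was thus let in by its high HFD values and is no support in this count. The differences of the log2 differences were 3.76 for Gpnmb, 3.10 for Spp1, 1.88 for Trem2 and 1.24 for Lgals3 (limma adjusted p = 5.34e-06, 0.00387, 2.28e-05 and 0.000832). Cd63 fell relative to Adgre1 by 1.48 (limma adjusted p = 0.000211), as did 96.9% of genes. Cd68 at 0.42, Cd9 at 0.04, Tyrobp at −0.20 and Dcstamp at −0.37 did not pass. All these values share the noise of Adgre1, so they are not independent of one another.

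In the KO label 5 of 9 rose beyond Adgre1, against 0.197% of genes: Spp1 by 3.61, Gpnmb by 3.36, Trem2 by 1.82, Lgals3 by 1.62 and Cd68 by 0.78. The smallest, Cd68, had a limma adjusted p of 0.0133. Spp1 is again no support in the count of 5, since it passed the filter only through the HFD libraries. Cd63 fell by 2.19 and Dcstamp by 1.31, against 97.4% of genes lower. The fall of Dcstamp depends on the pseudocount: with 0.1 in place of 1, its value was 0.16 in the KO label and 1.10 in the WT label. Among 18 pan-macrophage markers, such as Csf1r, Mertk and C1qa, 0 rose beyond Adgre1 in either label, while 12 fell in the WT label and 11 in the KO label, with medians of −1.01 and −0.98 against −2.67 and −2.86 over all genes. A list of other lipid-associated macrophage genes, 19 of them tested, was split. Relative to Adgre1, 5 rose and 7 fell in the WT label, and 4 rose and 8 fell in the KO label, with medians of −0.13 and −0.62.

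Per FPKM of Adgre1, Trem2 stood at 0.378 ± 0.080 FPKM in chow WT and 1.49 ± 0.15 in HFD WT (SD, n = 4), and the libraries ranged from 0.301 to 0.455 and from 1.37 to 1.70. The spread of Trem2 over the HFD WT libraries was thus much narrower as a ratio than as a level. In the KO label the ratio went from 0.503 ± 0.192 to 1.88 ± 0.48. The HFD KO ratios ran from 1.47 to 2.43, against levels of 134 to 270 FPKM, so there the spread was not much narrower. Gpnmb went from 0.495 ± 0.044 to 7.74 ± 3.93 FPKM per FPKM of Adgre1 in the WT label, and Lgals3 from 3.72 ± 0.47 to 8.53 ± 0.83. The ratio of Tyrobp was 3.72 ± 0.27 in chow WT and 3.14 ± 0.15 in HFD WT. Cd63 went the other way, from 9.40 ± 0.996 to 3.28 ± 0.64.

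**Figure D2:**
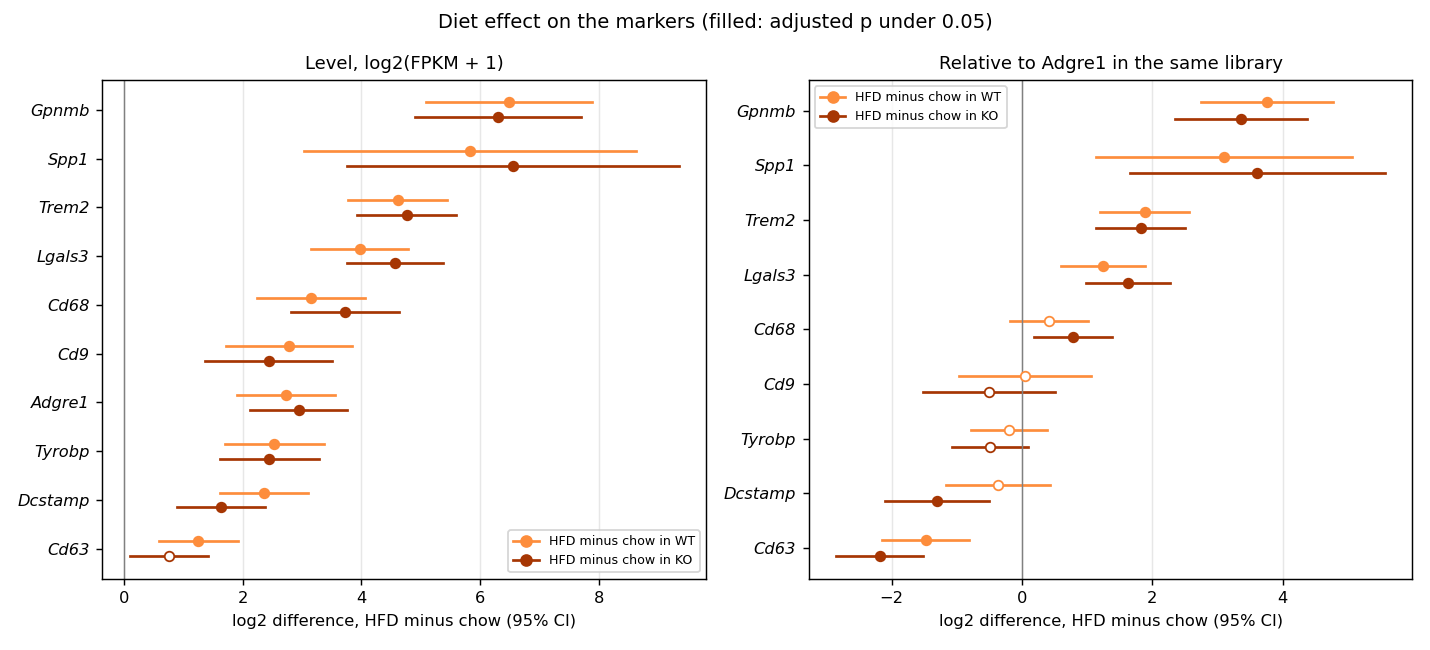
Log2 difference HFD minus chow for each marker with its 95% confidence interval, as a level on the left and relative to Adgre1 on the right, in the WT and KO labels. On the left every point is above 0 and only Cd63 in the KO label is open (not past the threshold); on the right Gpnmb, Spp1, Trem2 and Lgals3 stay above 0 in both labels and Cd63 is below it.

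**Figure D3:**
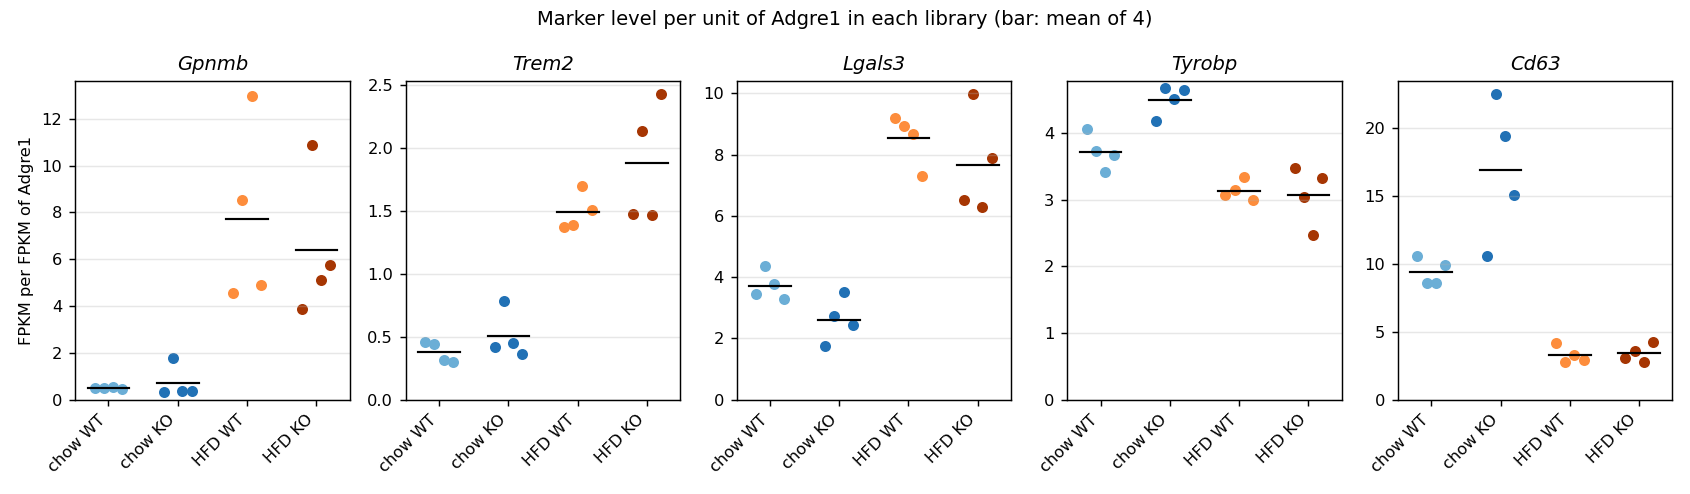
FPKM of 5 markers divided by the FPKM of Adgre1 in the same library, on linear axes that start at 0, with a bar at the mean of the 4 libraries of a group. Gpnmb, Trem2 and Lgals3 are higher per unit of Adgre1 on HFD, and Cd63 is lower.

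Listed relatives of the panel were read in the same fit. These lists, and those of cell types below, were also chosen with earlier results of these data known, so their counts are descriptive. Of 19 tested other lipid-associated macrophage genes, 15 rose and 1 fell with diet in each label, where 24.6% of genes were higher and 17.2% lower in the WT label and 23.5% and 15.3% in the KO label. The list medians were 2.60 in the WT label and 2.32 in the KO label. Itgax, which encodes the integrin CD11c, rose by 4.33 in the WT label and 3.84 in the KO label, and Ctsk, a lysosomal protease, by 3.87 and 3.52. The gene that fell in the WT label was Apoe, at −1.15, named after its value was seen. The single call of a lower gene in the KO label, in this list and in the fusion list below, was not stable: leaving out 1 library gave 0 to 2 here and 0 to 1 there. It was the same gene in both lists, which share Acp5, Ctsk and Atp6v0d2, so their counts are not separate. Of 18 tested partners of the TREM2 pathway, 13 rose in each label, and 1 fell in the WT label and 0 in the KO label, with medians of 1.12 and 1.35. The 1 that fell was again Apoe, which is in both lists. Ms4a7, of a membrane protein family linked to TREM2, rose by 2.42 in the WT label and 2.89 in the KO label, and Grb2, an adaptor of receptor signalling, by 1.03 and 1.32. Syk, the kinase that TYROBP recruits, rose by 2.54 in the KO label, where it was among the 4 partners with the smallest p. Its value in the WT label is not given here. For 0 of the 18 partners did the diet effect differ between labels at an adjusted p under 0.05 (smallest limma adjusted p = 0.374).

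Fusion and osteoclast-type genes, a list that holds Dcstamp, rose in 7 of 11 tested in the WT label with 0 lower, and in 8 of 11 in the KO label with 1 lower. Atp6v0d2, a proton pump subunit, rose by 5.28 and 5.15, and Siglec15, a receptor of osteoclasts, by 2.36 and 1.88. Siglec15 stood at a mean of 0.025 FPKM in chow WT. Like Dcstamp, Siglec15 reached the low-value filter only through the HFD libraries, which selects for high HFD values. So 2 of the 7 and of the 8 counted as rising were of that kind and are no support in those counts. Of 15 tetraspanins, 6 rose in the WT label, Cd9 and Cd63 among them. In the KO label 3 rose (6 without chow KO replicate 2), Cd9 among them, and 0 fell in either label. Cd53, a leukocyte tetraspanin, rose by 2.15 and 2.22. Of 8 galectins, 1 rose and 3 fell in the WT label (1 without HFD WT replicate 3), and 2 rose and 2 fell in the KO label. Lgals12, the galectin of fat cells, fell by 2.45 in the WT label while Lgals3 rose. Of all genes tested, 24.6% were higher and 17.2% lower in the WT label, and 23.5% and 15.3% in the KO label. The 3 tetraspanins higher in the KO label and the galectins higher in either label were near those shares or under them.

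Other cell types were counted beside these. Of 18 pan-macrophage markers, 16 rose in each label and 0 fell, and their summed level was 1493 to 1615 FPKM in chow WT and 2116 to 8158 FPKM in HFD WT. Of the 16 in the WT label, 1 reached the low-value filter only through the HFD libraries. Of 14 resident macrophage markers, 3 rose and 6 fell in the WT label and 3 rose and 5 fell in the KO label. The 3 higher are near the background of 24.6% and 23.5%, while the background lower was 17.2% and 15.3%. The 3 in the WT label became 0 in 7 of the 8 fits that left out a chow WT or HFD WT library, and the 3 in the KO label became 5 without HFD KO replicate 4 or without HFD WT replicate 1. Timd4, a receptor of resident macrophages, fell by 1.40 and 1.82. Of 10 monocyte markers, 1 rose in the WT label and 3 in the KO label, and 0 fell. That 1, and 2 of the 3, reached the low-value filter only through the HFD libraries. The 3 became 1 without HFD KO replicate 1 or 3 and 5 without HFD KO replicate 4, and the 1 became 2 without chow WT replicate 4 or HFD WT replicate 1. Of 16 adipocyte markers, 1 rose and 12 fell in the WT label, and 0 rose and 13 fell in the KO label. The single adipocyte marker called higher became 0 without chow WT replicate 4, HFD WT replicate 1 or HFD WT replicate 4, and 2 without HFD WT replicate 3. All 10 cell cycle genes tested were called higher in both labels, but 8 of them, Birc5 included, passed the filter only through the HFD libraries. Those 8 are no support in this count. How far these shifts in cell makeup enter the values of the 10 markers was not tested.

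Within HFD the markers varied together. Over the 8 HFD libraries the 45 pairs had a median Pearson r of 0.882, and the lowest was Spp1 with Dcstamp at 0.160. Tyrobp with Cd63 was the highest at 0.989, and Gpnmb with Cd9 reached 0.982. Over the 8 chow libraries the median was 0.565, with a range from −0.547 to 0.965. The highest chow pair was Spp1 with Cd9, both of which stood apart in chow KO replicate 2 (13.8 and 92.5 FPKM). No background over pairs of all genes was computed. All pairs share libraries, so these values describe the data and carry no p. Genes outside the panel most like Trem2 over the HFD libraries were Psd4, Vipas39, Evl, Ptpn7 and Mfhas1, with r from 0.987 to 0.990. Of the panel, Cd68 came nearest to Trem2 (r = 0.964, rank 77 of 12665 genes) and Dcstamp was farthest (r = 0.629, rank 3027).

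The spread within HFD was then set against the level of adipocyte genes, the mean log2(FPKM + 1) of 16 markers. That mean was 9.01, 7.32, 7.01 and 8.36 in HFD WT replicates 1 to 4 and 6.19, 7.91, 7.62 and 8.29 in the HFD KO replicates. Both measures come from the same libraries, and FPKM is a share of the library, so the values of a library are not free of one another. Spp1 was lower where adipocyte genes were higher (r = −0.895, exact permutation p = 0.00218, adjusted over all genes 0.0272; rho −0.905, exact permutation p = 0.00456; n = 8). Cd68 passed as well (r = −0.833, exact permutation p = 0.00791, adjusted 0.0478; rho −0.905, n = 8). The 2 that passed compare with 8.66% of all genes negative and 8.61% positive at that threshold.

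Trem2 had r = −0.805 (exact permutation p = 0.0145, adjusted 0.0658; rho −0.881), Tyrobp −0.836 (adjusted 0.0531), Cd63 −0.831 (adjusted 0.0540) and Adgre1 −0.787 (adjusted 0.0773), by the same exact permutation test. At an unadjusted exact permutation p under 0.05, 6 of 10 were negative, against 20.3% of all genes. That count was 2 without HFD WT replicate 1, the library with the most adipocyte RNA. Gpnmb at −0.610, Cd9 at −0.597 and Lgals3 at −0.685 did not pass, and Dcstamp was at −0.207 (exact permutation p = 0.623). HFD KO replicate 1 had the least adipocyte RNA and the most Spp1, yet its Gpnmb, at 712 FPKM, was below that of HFD KO replicate 2. Without the 2 libraries farthest from the median, HFD WT replicate 1 and HFD KO replicate 1, r was −0.806 for Spp1, −0.883 for Cd68, −0.874 for Gpnmb and −0.630 for Dcstamp. Within the WT label alone r was −0.967 for Spp1 and −0.978 for Cd68, and within the KO label −0.822 and −0.713, over 4 libraries each and with no test.

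**Figure D4:**
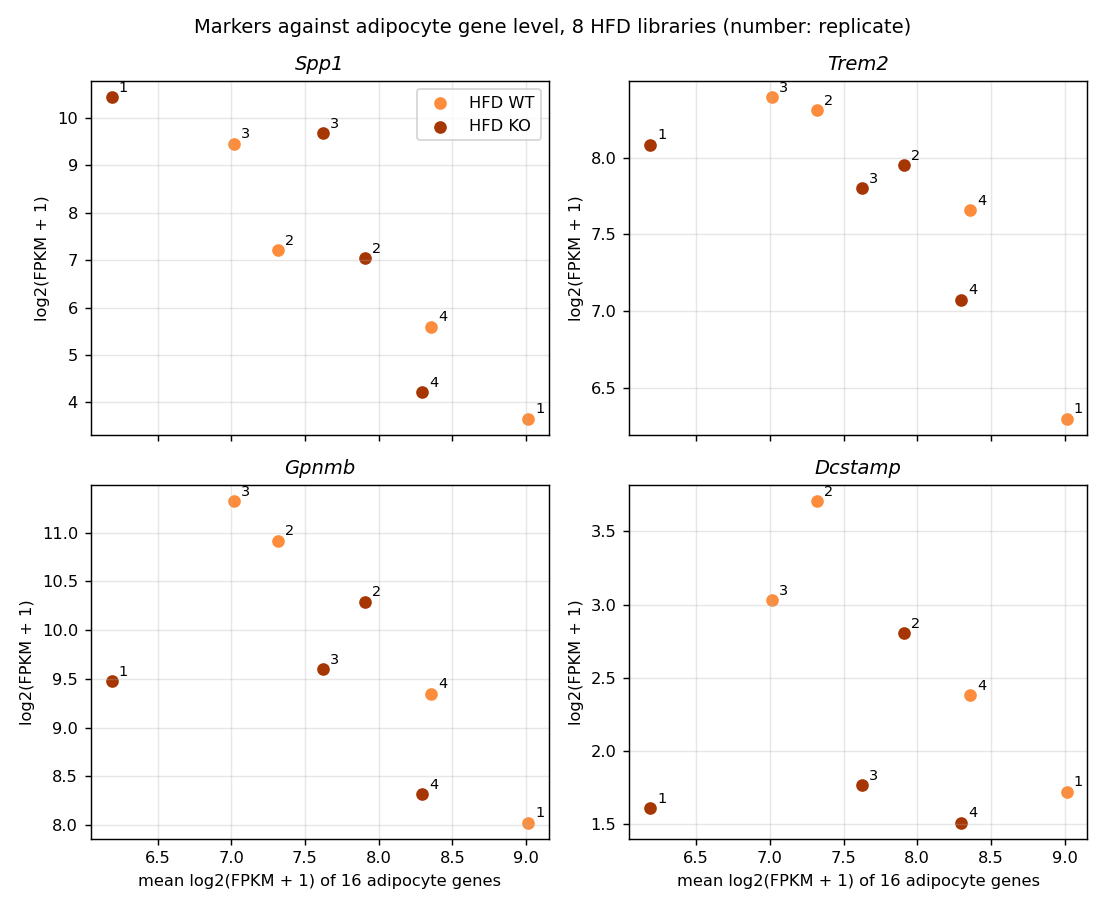
Log2(FPKM + 1) of Spp1, Trem2, Gpnmb and Dcstamp against the mean log2(FPKM + 1) of 16 adipocyte genes in the 8 HFD libraries, numbered by replicate. Spp1 falls from left to right through both groups, and HFD KO replicate 1 lies far left with low Gpnmb and Dcstamp for its place.

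The series asks what apolipoprotein A-IV does to inflammation in fat, so the genotype labels were compared on each diet. On HFD, 0 of 10 markers differed between the libraries labelled KO and WT at an adjusted p under 0.05 in limma, where 0.0237% of all genes were higher and 0.00789% lower. At an unadjusted p under 0.05 there was 1 marker, Dcstamp, against 11.8% of all genes. Dcstamp differed by −0.79 (95% CI −1.53 to −0.05, limma adjusted p = 0.400), with 12.1 FPKM in the highest HFD WT library and 1.85 FPKM in the lowest HFD KO library, and the groups overlapped. The intervals leave room for sizeable differences. Trem2 differed by 0.06 (95% CI −0.77 to 0.89), Gpnmb by −0.48 (95% CI −1.89 to 0.92) and Spp1 by 1.36 (95% CI −1.43 to 4.16). No marker had HFD groups without overlap, where 5.81% of genes were higher and 1.02% lower. Without the 2 libraries rich in epididymal genes, the signs of Tyrobp, Cd9, Cd63 and Adgre1 turned, and all 4 stayed short of the threshold.

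On chow, 0 of 10 passed, against 0.426% of genes higher and 0.979% lower, and 1 marker had an unadjusted p under 0.05, against 14.7% of all genes. That marker was Lgals3, which differed by −0.9998 on the log2 scale (95% CI −1.82 to −0.18, limma adjusted p = 0.246), with no chow KO library (at most 40.9 FPKM) reaching the lowest chow WT library (59.8 FPKM). It passed when libraries were weighted by quality (−1.03, limma adjusted p = 0.0182) and when the 2 chow groups were fitted alone (limma adjusted p = 0.0170). Lgals3, Cd68 and Adgre1 were the 3 markers lower in chow KO without overlap, against 6.25% of genes lower and 8.94% higher. Cd68 differed by −0.55 and Adgre1 by −0.44, with limma adjusted p of 0.591 and 0.641. Spp1 and Cd9 were nominally higher in chow KO, by 0.64 and 0.22; without chow KO replicate 2 the differences were −0.22 and −0.40. Gpnmb, at −0.29, was at −0.84 without it (limma adjusted p = 0.680).

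**Figure D5:**
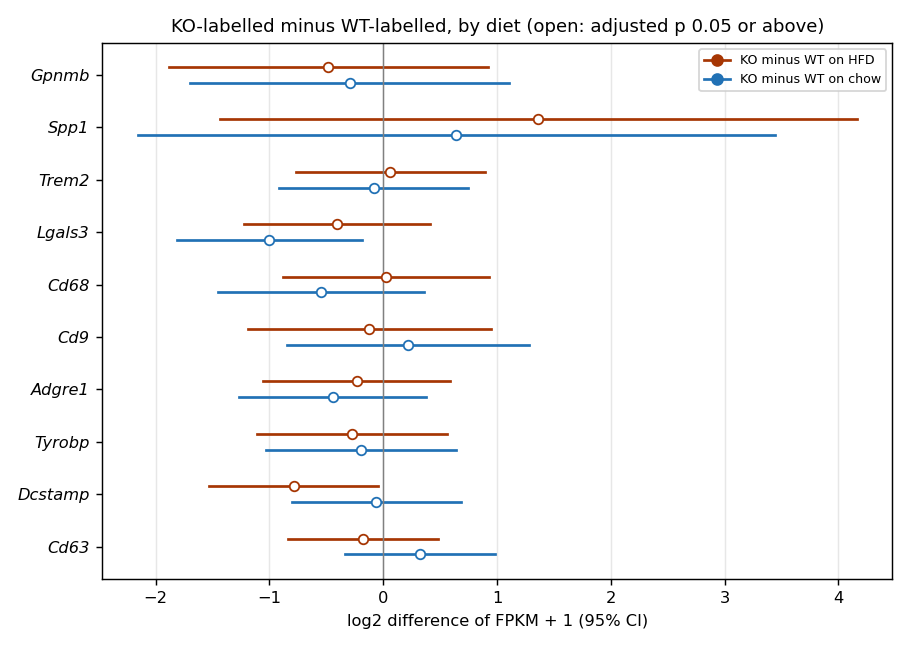
Log2 difference between the libraries labelled KO and WT for each marker, with its 95% confidence interval, on HFD and on chow. All points are open, none past an adjusted p of 0.05; the intervals of Dcstamp on HFD and Lgals3 on chow exclude 0 before adjustment.

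The difference of the diet effects between labels was tested as an interaction. For 0 of 10 markers did it pass, against 0.253% of all genes higher and 0.0395% lower, and 0 had an unadjusted p under 0.05, against 10.1% of genes. Dcstamp had the smallest adjusted p (−0.73, 95% CI −1.78 to 0.32, limma adjusted p = 0.690). Relative to Adgre1, 0 of 9 markers differed between labels on either diet, against 0.0079% of genes higher on HFD, and 0.0237% higher and 0.0158% lower on chow. At an unadjusted p under 0.05 there was 1 marker, Cd63 on chow, at 0.76 (limma adjusted p = 0.463), where the median over all genes was 0.54; the background was 7.11% of genes on chow and 2.42% on HFD. In the lists named above, 0 genes passed in either genotype comparison.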

How the data were processed

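RNA-seq libraries of epididymal fat from 16 mice, 4 per group by diet and genotype label, were read from the authors' deposited table of FPKM, rounded to 2 decimals. Per the submitters' processing notes, STAR 2.7 and the builds GRCm38.p6 and mm10 were used; the tool behind the FPKM values, its annotation and the strand were not given in the sources used here. FPKM carry no counts, so the depth behind a value is unknown and intervals for counting error were not made. Of the table, 14408 circular RNA entries and 1 blank row were not used.

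The 12667 genes tested reached an FPKM of 1 in 4 or more of the 16 libraries. The deposited FPKM were turned into log2(FPKM + 1). The fit was made in limma 3.58.1 (R 4.3.3), with 4 group means, a variance trend and Benjamini-Hochberg adjustment over all genes. Fits relative to Adgre1 had no trend. A call is an adjusted p under 0.05. The exact two-sided permutation p is the share of orders with an absolute r at least as large. The code was tested on simulated data. Named are the 10 markers, Apoa4, up to 4 genes with the smallest p per list and the 5 genes most like Trem2. The members and lists were chosen with earlier results of these data known. Alternatives were other scalings, pseudocounts of 0.1 and 0.5, other filters, a replicate block, array weights, 2 groups alone, Cd68 as reference and leaving out libraries; the other definition of a two-sided permutation p was added after seeing the data.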

Additional observations from a re-analysis of the deposited data

Results flagged for a closer look

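In 4 of the 40 sets of 4 libraries examined (10 markers in 4 groups), 1 library lay far from the others of its group by Dixon's criterion. Chance alone gives about 1 in 20 for independent sets of normally spread values. The markers share libraries, and 3 of the 4 flags fall on 1 library, so the 4 of 40 cannot be weighed against that rate. In chow KO, replicate 2 stood apart for Gpnmb at 26.26 FPKM (others 4.32 to 5.46), for Spp1 at 13.81 FPKM (others 0.31 to 0.40) and for Cd9 at 92.53 FPKM (others 14.3 to 17.3). This is the library in which epididymal and testis genes made up 3.03% of all FPKM; their part in the 3 values was not tested. In HFD KO, replicate 2 stood apart for Dcstamp at 5.99 FPKM (others 1.85 to 2.40).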

How the results depend on the processing

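Of 520 alternative values of the counts of markers, 515 stayed within 1.5 times the reported one. The chow count of markers lower in the KO label became 1 (Lgals3) with array weights and with the 2 groups alone. Relative to a reference gene, the number lower with diet in the KO label was 5 with Cd68 as reference and 1 with a pseudocount of 0.1, against 2. Leaving out 1 library moved the adipocyte count of 6 to between 2 and 9; taking the permutation p as 2 times the smaller tail, an alternative added after seeing the data, kept it at 6. For the gene lists, 179 of 4896 alternative counts moved by over 1.5 times; over all alternatives, monocyte markers called higher ranged from 0 to 5 in WT and 0 to 6 in KO, resident markers from 0 to 5 and 2 to 6, and cell cycle genes were 4 with a mean FPKM of at least 5, since fewer were tested. No called level difference changed sign. On HFD, KO minus WT, none of it called, turned sign for Trem2 (−0.0330 with median-of-ratios scaling, −0.19 with array weights), Cd68 (−0.0710 with median-of-ratios, −0.0033 with a constant sum) and, without the 2 libraries rich in epididymal genes, Tyrobp (0.0357), Cd9 (0.0259), Cd63 (0.0607) and Adgre1 (0.12); without 3 such libraries Tyrobp was 0.19, Cd63 0.13 and Adgre1 0.29. On chow, Spp1 was −0.0412 with array weights and −0.22 without 2 or 3 such libraries, and Cd9 −0.21 and −0.40. Relative to Cd68, Cd9 in WT was −0.37. Relative to Adgre1 with a pseudocount of 0.1, Dcstamp was 1.10 in WT and 0.16 in KO, where the reported fall had been called. Leaving out each library gave ranges, on HFD between labels, of −0.39 to 0.31 for Trem2, −0.70 to 0.0357 for Tyrobp, −0.48 to 0.15 for Cd9, −0.47 to 0.0607 for Cd63, −0.42 to 0.38 for Cd68 and −0.65 to 0.12 for Adgre1; on chow, −0.31 to 0.0524 for Trem2, −0.22 to 0.94 for Spp1 and −0.40 to 0.47 for Cd9; and, relative to Adgre1, −0.0518 to 0.19 for Cd9 in WT and −0.81 to 0.10 in KO. The cause was not tested. The replicate block kept 10 markers higher in WT and 9 in KO. Of 24 same-number pairs, 8 had r over 0.1 (range −0.630 to 0.367), and 4 of 16 libraries correlated best with their own number. The mean r was 0.000827 for same numbers and 0.00205 for other numbers, so no pairing was seen. What the replicate numbers stand for was not given in the sources used here. Depth behind each FPKM is unknown, which limits Dcstamp and Spp1 on chow most.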

Other observations

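Il1b, which encodes the inflammatory cytokine interleukin-1 beta and was looked at after its values were seen, was uneven over the HFD libraries. It stood at 0.16, 0.43, 1.99 and 0.49 FPKM in HFD WT and at 25.8, 1.46, 8.02 and 0.18 FPKM in HFD KO, and at most 0.65 FPKM in any chow library. HFD KO replicates 1 and 3, the highest for Il1b, were also the highest of the 8 HFD libraries for Spp1, at 1388 and 816 FPKM. Itgax was not: it stood at 28.9 FPKM in HFD KO replicate 1, the lowest of the HFD libraries, and at 186 FPKM in HFD WT replicate 3, the highest.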
